A study of Mus musculus with 17 samples.

Results

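Sox6 interneurons without Sst are inhibitory neurons picked out nucleus by nucleus from single-nucleus RNA counts of mouse posterior brain, 1699 of 284074 nuclei in all. A member was a nucleus that the authors labelled a neuron, did not call a doublet and did not place in deposited cluster 13 (cluster resolution 0.4). In its counts of unique molecular identifiers (UMIs, counted RNA molecules) Gad1 and Gad2 together had to reach 3 and exceed the sum of Slc17a7 and Slc17a6 by more than a factor of 2. It also needed 3 or more UMIs of Sox6, at most 1 of Sst and at most 2 of Adarb2. Members made up 1.19% of the 142659 neurons that met these 3 label conditions and 14.9% of the 11386 GABAergic nuclei among them. The rule thus chose members by their counts of these 7 genes, and levels of those genes are given below as description only.

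The 17 samples came from female mice, 2.3 months old, in which the human transferrin receptor (TfR) is knocked in on both alleles, so controls and treated mice all carry the human receptor. By intravenous route they were given 4 weekly doses of saline (n = 4), of an unconjugated oligonucleotide that targets Malat1 (named Malat1 ASO, 2 mg/kg, n = 4), or of 1 of 2 conjugates. These were anti-TfR:Malat1, in which an antibody against the receptor carries the oligonucleotide (50 mg/kg, n = 6), and OTV:Malat1, in which a TfR-binding transport vehicle carries it (50 mg/kg, n = 3). The dose field of the saline samples reads 50 mg/kg, as for the conjugates, while their treatment field and titles name saline and vehicle, and they were taken here as given no oligonucleotide. Brains were frozen 72 hours after the last dose. The free oligonucleotide dose is stated as equivalent in oligonucleotide, so its mass per kg differs from that of the conjugates, and the sources used here do not give the oligonucleotide held by each conjugate. The question here was whether Malat1 and other genes of these interneurons differed between the treatments.

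Each sample is taken as 1 animal, numbered as its title numbers it. An animal gave 13841 to 18365 nuclei and 72 to 132 members, whose UMIs summed to between 364188 and 903249 per animal. Single members held 1065 to 17247 UMIs, with a median of 5661 against 4283 for all neurons. The median member of each OTV:Malat1 animal held 5045, 4823 and 4399 UMIs, below every saline animal (5277 to 6860). The deposited metadata place the animals in 4 batches, which hold saline and Malat1 ASO animals 1 to 4 in that order, anti-TfR:Malat1 animals in the order 1, 2, 3, 3, 4, 4, and OTV:Malat1 animals 1 to 3 in batches 2, 3 and 4. No 2 members shared a cell barcode, while 116 members (6.83%) had the barcode of a nucleus in another library, against 20326 of all nuclei (7.16%). Another 743 nuclei that met the Gad1 and Gad2 condition were left out because the authors called them doublets.

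Cortical and hippocampal interneurons that express Sox6 arise from the medial ganglionic eminence, under the regulators Lhx6 and Sox6, and divide chiefly into a parvalbumin (Pvalb) class and a somatostatin (Sst) class. Pvalb basket cells are the fast-spiking inhibitory neurons: Kv3 potassium channels let them fire at high rates, and they inhibit the cell bodies of excitatory neurons. Malat1, a long noncoding RNA, is retained in the nucleus, where it gathers in speckles rich in splicing factors. An antisense oligonucleotide of the gapmer kind directs RNase H to cleave the RNA it pairs with. TfR carries iron-loaded transferrin across the brain endothelium and into neurons.

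Levels below are CPM, a gene's counts over the summed counts of the same nuclei scaled to 1e+06, without division by gene length, so they compare the same gene between cell types. Among the markers given for these nuclei, Gad1, which makes GABA, stood at 438 ± 43.9 CPM (SD over 17 animals). Sox6 stood at 1102 ± 79.3 CPM. Nxph1, a secreted ligand of neurexins, stood at 2996 ± 306 CPM, against 378 in all other neurons, but was higher still in Sst interneurons, at 3430, and stood at 1317 in Adarb2 interneurons. Pvalb, the calcium buffer that names the class, stood at 51.9 ± 14.3 CPM, against 4.44 in Sst interneurons (234 nuclei), 8.84 in Adarb2 interneurons (4322) and 3.15 in glutamatergic neurons (12593). Those 3 comparison classes were drawn from the same neurons with the same genes, Sst interneurons by Sst of 2 or more. Adarb2 interneurons were GABAergic nuclei with Adarb2 of 3 or more, Sox6 of at most 2 and Sst of at most 1. The name stands for this rule only, as the class was mixed. It also held markers of other GABAergic neurons, among them Meis2 at 321, Gata3 at 21.2 and Otx2 at 16.2 CPM.

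Genes of the fast-spiking type that the rule did not use were also high. Kcnc1, a Kv3 channel subunit, stood at 479 CPM against 136 in Sst and 190 in Adarb2 interneurons. Kcnc2, another Kv3 subunit, stood at 2926 CPM against 1923 and 586. Syt2, the fast calcium sensor of release in basket cell terminals, stood at 119 CPM against 7.84 and 39.2. Erbb4, the neuregulin receptor of these cells, reached 9334 CPM against 1370 and 5140, and Btbd11 reached 616 against 113 and 201. Lhx6 stood at 43.1 CPM, close to the 46.0 of Sst interneurons and far above the 4.41 of Adarb2 interneurons.

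Against all other neurons the highest ratio among genes of at least 50 CPM belonged to Eya4, a transcriptional coactivator, at 252 CPM against 10.4, or 24.1-fold. Moxd1 (116 against 8.03), Pde5a (139 against 10.3) and the transcription factor Maf (282 against 30.4) followed the same pattern. So did the potassium channel genes Kcnmb2 (1002 against 124) and Kcns3 (114 against 13.5). Each of these 6 genes was higher in members than in other neurons in 17 of 17 animals. They lead the members by construction of such a ranking and were not tested.

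Pde5a (139 against 4.70 CPM), Myo1e, Mypn, Cemip (512 against 32.7) and Gabrd, the tonic GABA receptor subunit (61.5 against 6.09), led members over Sst interneurons. In the other direction stood Elfn1 (44.7 against 251), a synaptic adhesion gene of Sst cells, Man1a (88.3 against 649), Pde1a (125 against 889) and Cacna2d3 (379 against 2083). All 8 Vip-class markers stood lower in members than in Adarb2 interneurons (Vip at 4.01 CPM against 66.2), and so did 8 of 9 Lamp5-class markers (Lamp5 at 3.95 against 57.3). The exception was Eya1, at 47.2 against 5.17, and Reln still stood at 171 CPM against 679. Meis2 stood at 19.7 against 321. Of 9 markers of midbrain and hindbrain GABAergic neurons, 3 (Gata2, Sox14 and Slc6a5) had 0 UMIs in all members. Chandelier cell markers summed to 46.9 to 129 CPM over 7 genes in saline animals.

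**Figure D1:**
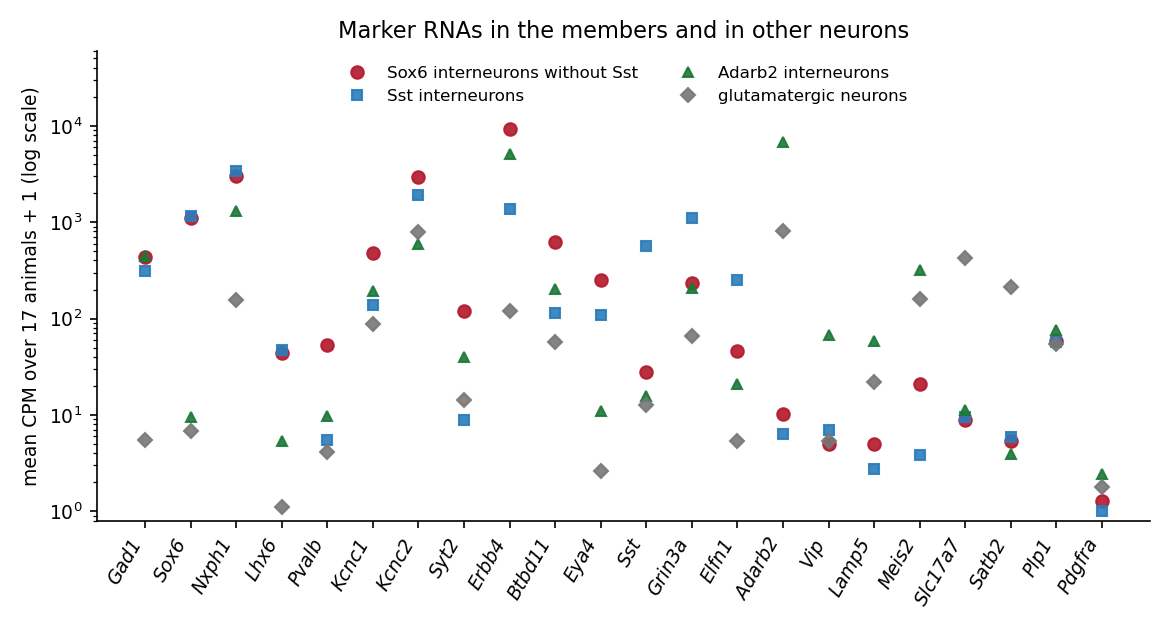
Mean level of marker genes (CPM + 1, log scale, mean over 17 animals) in Sox6 interneurons without Sst and in the comparison classes. Pvalb, Syt2, Btbd11 and Eya4 are highest in Sox6 interneurons without Sst, Grin3a and Elfn1 in Sst interneurons.

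A Pvalb UMI was seen in 396 of 1699 members, or 23.3% (95% exact binomial interval 21.3 to 25.4, counting error only). Free RNA in the droplets sets a background for such a share, and oligodendrocytes, which should lack Pvalb, gave 1.40% at a median of 1249 UMIs. Nuclei of at least 2000 UMIs were then thinned to 2000, which left out 17 members, 48 glutamatergic neurons and no Sst interneuron, but 64634 of the 71388 oligodendrocytes. The share was 9.10% in members against 1.20% in the 6754 oligodendrocytes kept, 0.725% in glutamatergic neurons and 0.427% in Sst interneurons. Members thus stood well above the background, although most of them showed no Pvalb UMI at this depth.

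The members were not all of 1 kind, as the deposited finer clusters (resolution 1) show. Cluster 17 held 1270 members (74.7%), of which 27.2% had a Pvalb UMI, and was led within the members by Mybpc1, Pdzrn3, Eya4 and Cemip. Cluster 18 held 102 (6.00%), of which 41.2% had one, at a median of 10562 UMIs, and was led by Lrmda and Pde11a. Clusters 2 (203 members, 11.9%) and 4 (107 members, 6.30%) had a Pvalb UMI in only 1.97% and 4.67% (4 and 5 nuclei). All neurons other than members gave 2.55%. These shares were not matched for depth. Cluster 2 was led by Trpm3, Egfem1, Rmst, Pcsk5, Pde1a and Man1a, of which Egfem1, Pcsk5, Pde1a and Man1a were also among the genes higher in Sst interneurons than in members. Among the leading genes of cluster 4 were Dlk1, Cartpt and Cacna2d3, at a median of 3138 UMIs per member. The last 4 clusters held 8, 7, 1 and 1 members.

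The Pvalb name thus rests on clusters 17 and 18, and members of clusters 2 and 4 are called here by number. Grin3a, a glutamate receptor subunit gene high in Sst interneurons (1096 CPM), stood at 631 CPM in members of cluster 2 and at 732 in those of cluster 4. Cluster 17 took a mean of 71.9% of the members with saline, 74.9% with Malat1 ASO, 77.0% with anti-TfR:Malat1 and 75.6% with OTV:Malat1. Cluster 2 took 13.3%, 9.43%, 12.1% and 10.9% in the same order. The cluster 4 share varied widely within groups, from 0% to 16.7% in saline (median 3.19%), 0% to 18.1% in Malat1 ASO (median 9.25%), 0% to 10.0% in anti-TfR:Malat1 (median 5.82%) and 5.49% to 13.9% in OTV:Malat1 (median 10.8%). Cluster 18, the cluster of the deepest members, took 0% to 21.8% in saline (median 6.97%), 1.39% to 13.6% in Malat1 ASO (median 2.47%), 0.758% to 9.43% in anti-TfR:Malat1 (median 4.51%) and 0% to 5.49% in OTV:Malat1 (median 1.20%). The groups overlapped for both clusters. These shares were not tested, and clusters 17 and 2 were seen in all 17 animals.

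The rule took 21.8% of the 5817 neurons of cluster 17 and 6.67% of the 1529 of cluster 18. Nuclei just inside and just outside each threshold show part of what it left out. A Pvalb UMI was present in 18.03% of the 294 members with 3 Sox6 UMIs and in 18.4% of the 267 nuclei that failed only by having 2. At the Sst limit the share was 25.0% in the 1427 members with none, 14.3% in the 272 members with 1 and 2.22% in the 90 nuclei with 2. At the Gad1 plus Gad2 limit it was 20.3% in the 666 members with 3 UMIs and 16.4% in the 855 nuclei with 2. Only 12 members had 2 Adarb2 UMIs, and 5 nuclei failed by having 3.

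Members with a Pvalb UMI were also the deeper ones, with a median of 6814 UMIs (6813.5 before rounding) against 5380 without. Syt2 stood at 194 CPM in members with a Pvalb UMI and 89.7 in those without, Btbd11 at 820 and 542, and Kcnc1 at 621 and 420. Grin3a stood at 51.4 against 302 CPM, Reln, the secreted glycoprotein reelin, at 56.1 against 213, and Nxph1 at 2428 against 3204, each lower in 17 of 17 animals. These levels describe the split and were not tested.

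The share of neurons that were members was 1.80%, 1.58%, 1.01% and 1.09% in the saline animals and 1.59%, 1.019%, 0.882% and 0.855% in the Malat1 ASO animals. It ranged from 0.861% to 1.56% in anti-TfR:Malat1 (median 1.42%) and was 0.980%, 1.08% and 0.900% in OTV:Malat1. The groups overlapped. All 4 Malat1 ASO animals lay below the saline animal of their batch (within-batch exact permutation p 0.125, the smallest possible). The OTV:Malat1 mean lay -0.386 percentage points from saline (exact permutation p 0.114) and -0.314 points from anti-TfR:Malat1 (exact permutation p 0.167). No OTV:Malat1 animal is in batch 1, and without saline animal 1, of that batch, or within batches, the first was -0.244 (within-batch exact permutation p 0.5). Relative to saline, the Malat1 ASO mean lay at -0.286 points (exact permutation p 0.257) and that of anti-TfR:Malat1 at -0.0712 (exact permutation p 0.771). Over these 4 tests adjusted p ranged from 0.333 to 0.771. Comparisons against saline share the saline animals throughout. The rule asks for minimum counts of Sox6 and of Gad1 plus Gad2, so the share can depend on depth. By animal, the median neuron had 6070, 4927, 3678 and 3986 UMIs (saline) and 4918, 4380, 4150 and 3650 (Malat1 ASO). In batch 3 the Malat1 ASO animal was thus the deeper. For OTV:Malat1 the values were 3865.5, 3979 and 3626, and for anti-TfR:Malat1 they spanned 3780 to 5258. The part of depth in the share differences was not tested.

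The share of members with a Pvalb UMI, thinned to 2000 UMIs, was 8.19% ± 2.97 (SD, n = 4) in saline and 8.82% ± 5.04 (n = 4) in Malat1 ASO. For the conjugates it was 9.63% ± 4.03 (n = 6) with anti-TfR:Malat1 and 8.73% ± 3.12 (n = 3) with OTV:Malat1. No difference passed the exact permutation test (4 comparisons, exact p 0.590 to 1). Pvalb itself stood at 49.4 CPM in saline and 50.0 in OTV:Malat1, an edgeR log2 change of -0.02 (SE 0.29, adjusted p 1.00).

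**Figure D2:**
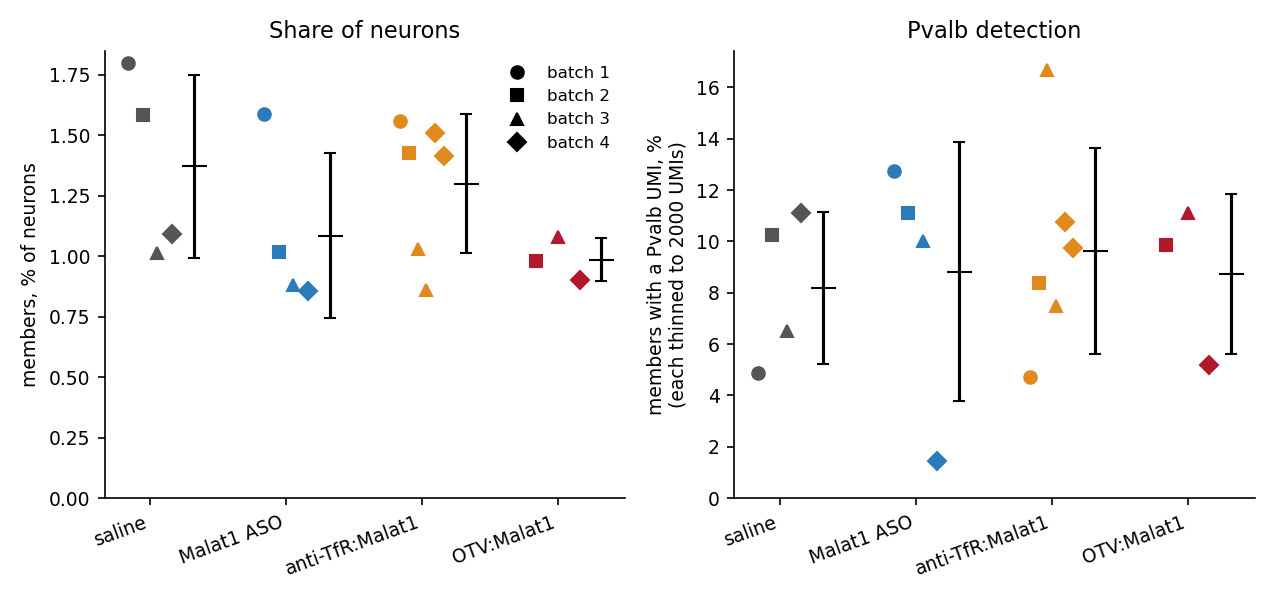
Members as a percent of neurons (left) and members with a Pvalb UMI after thinning to 2000 UMIs (right), 1 point per animal, marker shape for the deposited batch, bar and whiskers for the group mean and SD. The 4 groups overlap in both measures.

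Malat1 (ENSMUSG00000092341, chromosome 19, 5795690 to 5802672, minus strand, GRCm38) is a long intergenic noncoding RNA and the target of the oligonucleotide. In members it took 6.90%, 6.31%, 7.79% and 3.91% of UMIs in the saline animals and 6.31%, 6.48%, 7.43% and 4.46% in the Malat1 ASO animals. In anti-TfR:Malat1 it ranged from 3.95% to 6.53% with a median of 5.59%. In the OTV:Malat1 animals it took 2.26%, 2.84% and 1.58%, each below the lowest animal of every other group.

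Group means were 6.23% ± 1.66 (SD, n = 4) with saline, 6.17% ± 1.24 (n = 4) with Malat1 ASO, 5.50% ± 0.99 (n = 6) with anti-TfR:Malat1 and 2.23% ± 0.63 (n = 3) with OTV:Malat1. These are 99.1%, 88.3% and 35.8% of the saline mean for the 3 treatments. In OTV:Malat1 Malat1 fell by 1.56 on the log2 scale against saline (SE 0.18, edgeR adjusted p 3.8e-06) and by 1.40 against anti-TfR:Malat1 (SE 0.17, edgeR adjusted p 1.4e-05). Against Malat1 ASO, given at 2 mg/kg of free oligonucleotide against 50 mg/kg of conjugate, the edgeR change was -1.57 (SE 0.18, adjusted p 3.2e-06). In each of these comparisons edgeR called 0 of the other 8240 genes (0%). Groups that did not overlap in CPM, with OTV:Malat1 the lower, were seen in 1.43% of those genes against saline and 0.655% against anti-TfR:Malat1. CPM counts Malat1 in the total, so other genes stand slightly higher in OTV:Malat1 on that scale.

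Neither other treatment passed against saline. The edgeR change was -0.16 (SE 0.15, adjusted p 1.00) in anti-TfR:Malat1 and 0.01 (SE 0.16, adjusted p 1.00) in Malat1 ASO, and the 2 differed by -0.18 (SE 0.15). Taken batch by batch, OTV:Malat1 stood at a log2 difference from saline of -1.48, -1.45 and -1.31 in batches 2 to 4, and from anti-TfR:Malat1 of -1.36, -1.19 and -1.69. For anti-TfR:Malat1 the log2 difference from saline in batches 1 to 4 took the values -0.80, -0.11, -0.26 and 0.39, so its sign changed between batches. For Malat1 ASO the values were -0.13, 0.04, -0.07 and 0.19.

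As a single value on the log2(CPM + 1) scale, Malat1 differed between OTV:Malat1 and saline by -1.48 (two-sided exact permutation p 0.0571, the smallest that 3 animals against 4 allow). Against anti-TfR:Malat1 the difference was -1.32 (exact permutation p 0.0238, the smallest that 3 against 6 allow). Both adjusted p were 0.114 over 6 tests, so neither passed in this family. Over 30 alternatives, of which 1 was DESeq2 and the others edgeR, the change against saline lay between -1.85 and -1.38, with adjusted p of 7.1e-26 to 0.00097, and that against anti-TfR:Malat1 between -1.72 and -1.22, with adjusted p of 3.9e-23 to 0.0013. The alternative with only Pvalb members lacked OTV:Malat1 animal 3, anti-TfR:Malat1 animals 1 and 4 and Malat1 ASO animals 3 and 4. Others left out an animal of neither group compared, which leaves the compared animals unchanged. OTV:Malat1 members were shallower, and the part of depth in the change was not tested.

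**Figure D3:**
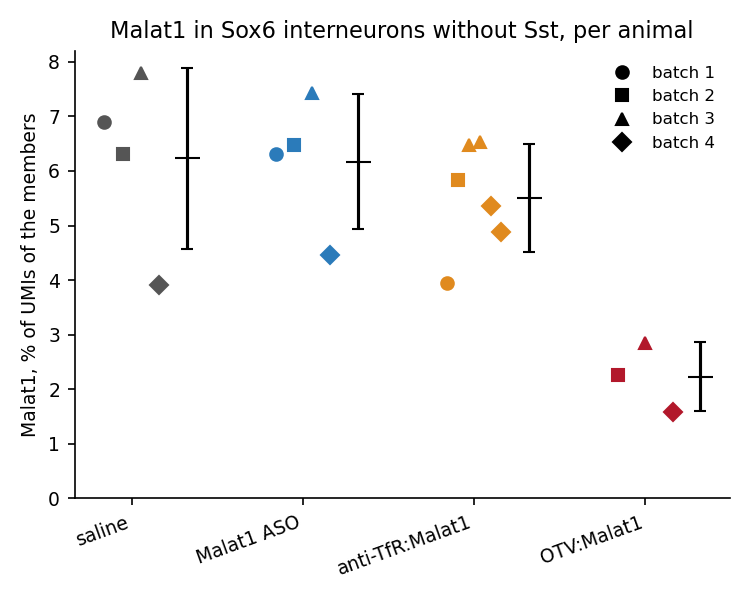
Malat1 as a percent of the UMIs summed over the members of each animal, 1 point per animal, marker shape for the deposited batch, bar and whiskers for the group mean and SD. The 3 OTV:Malat1 animals lie between 1.58% and 2.84%, below all others.

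The lower level was seen across most single members. The median member of the OTV:Malat1 animals had 1.92%, 2.80% and 1.45% of its UMIs from Malat1, against 6.27%, 5.76%, 7.17% and 3.65% in the saline animals. Of OTV:Malat1 members, 95.2%, 95.6% and 96.2% lay below the median member of the saline animal of the same batch, and 77.1%, 89.0% and 83.5% below its 10th percentile. The corresponding share below the median was 43.1% to 57.3% in Malat1 ASO. In anti-TfR:Malat1 it was 92.5% in animal 1, 59.1% to 71.6% in animals 2 to 4, and 18.9% and 25.2% in animals 5 and 6, whose batch holds the saline animal with the least Malat1.

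In absolute counts the median OTV:Malat1 member held 99, 139 and 63 Malat1 UMIs, against 414, 343, 382.5 and 210.5 in saline. Its other UMIs numbered 4991, 4734 and 4357, against 6469.5, 5858, 4889 and 5356. Malat1 counts thus lay below every saline animal, and other counts overlapped those of 1 saline animal.

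**Figure D4:**
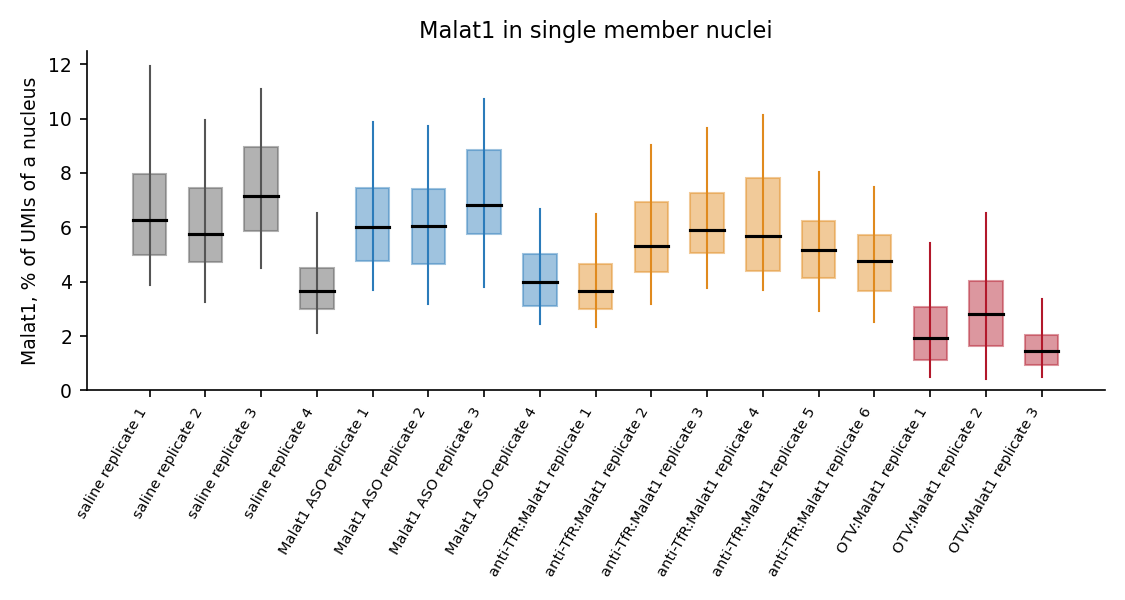
Malat1 as a percent of the UMIs of single members in each animal: line from the 5th to the 95th percentile, box from the 25th to the 75th, bar at the median. The 3 OTV:Malat1 boxes lie lower than those of the saline animals of their batches.

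Within the members, the OTV:Malat1 mean was 33.3% of the saline mean in cluster 17 (191 and 310 nuclei), 67.1% in cluster 2 (28 and 59) and 44.1% in cluster 4 (25 and 21 nuclei, the means being over animals with 5 or more, 2 of them saline). It was 27.6% in members with a Pvalb UMI (55 and 106 nuclei) and 39.8% in those without (198 and 329). Restricted to cluster 17, the edgeR change against saline was -1.66, and restricted to members with a Pvalb UMI it was -1.85. By Sst count, the OTV:Malat1 mean was 34.4% of saline in members with none and 42.7% in members with 1. By Sox6 count, it was 37.3% in members with 3 or 4 UMIs and 35.6% in those with 5 or more.

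The split by Pvalb was compared over animals, a test added after the values had been seen. Malat1 of members with a Pvalb UMI minus that of members without, in log2(CPM + 1), was 0.26 ± 0.07 (SD, n = 4) for saline, 0.25 ± 0.09 (n = 4) for Malat1 ASO and 0.29 ± 0.06 (n = 6) for anti-TfR:Malat1. In OTV:Malat1 it was -0.26 ± 0.49 (n = 3), with -0.79, -0.14 and 0.16 in animals 1 to 3. The difference of OTV:Malat1 from saline was -0.52 (exact permutation p 0.0571, the lowest this design allows; 0.114 when adjusted over 4 tests) and from anti-TfR:Malat1 -0.55 (exact permutation p 0.0238, adjusted p 0.0952). Neither passed after adjustment. Without OTV:Malat1 animal 1 the values were -0.25 and -0.28. Depth differs between the 2 kinds of member, and its part in this was not tested.

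In the other classes of the same animals Malat1 stood at other shares of its saline level. The OTV:Malat1 mean was 59.98% of the saline mean in Sst interneurons (5 to 9 nuclei per OTV:Malat1 animal), 68.8% in Adarb2 interneurons, 66.6% in glutamatergic neurons and 15.0% in oligodendrocytes (71388 nuclei), against 35.8% in members. In saline animals Malat1 took 6.29% ± 2.23 of UMIs in Sst interneurons, 4.73% ± 1.19 in Adarb2 interneurons, 6.96% ± 1.57 in glutamatergic neurons and 10.4% ± 1.81 in oligodendrocytes (SD, n = 4). In anti-TfR:Malat1 the means were 91.3%, 92.4%, 92.2% and 67.7% of saline in the same order, against 88.3% in members. In Malat1 ASO they were 81.1%, 97.7%, 97.1% and 95.2%, against 99.1% in members.

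Within animals, the log2 level in members minus that in Adarb2 interneurons was 0.39 ± 0.07 (SD, n = 4) in saline, 0.33 ± 0.06 (n = 6) in anti-TfR:Malat1 and -0.57 ± 0.14 (n = 3) in OTV:Malat1. Members thus held more Malat1 than this mixed Adarb2 class in each saline and anti-TfR:Malat1 animal, and less in each OTV:Malat1 animal. Against saline, the OTV:Malat1 difference was -0.74 relative to Sst interneurons, -0.96 relative to Adarb2 interneurons, -0.92 relative to glutamatergic neurons and 1.25 relative to oligodendrocytes. Each had an exact permutation p of 0.0571, the smallest possible, and an adjusted p of 0.0914 over 16 tests. Against anti-TfR:Malat1 the 4 values were -0.66, -0.90, -0.87 and 0.84, with exact permutation p of 0.0476 for Sst interneurons, 0.0238 for the others and 0.0914 for each after adjustment. For Malat1 ASO against saline the difference relative to Sst interneurons was 0.25 (exact permutation p 0.0571, adjusted p 0.0914), and it did not pass either.

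A fit of both classes with the animal as a block, added after seeing the data, tested the same differences among all genes. For OTV:Malat1 against saline, the Malat1 change in members was larger than in Adarb2 interneurons by -0.995 (SE 0.081, edgeR adjusted p 9.8e-12). It was larger than in glutamatergic neurons by -0.96 (SE 0.089, edgeR adjusted p 2.1e-09). Relative to Sst interneurons the edgeR difference was -0.60 (SE 0.22, adjusted p 0.944) and did not pass. Relative to oligodendrocytes it was 1.31 (SE 0.17, edgeR adjusted p 3.5e-05), the change in members being the smaller.

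That last difference was not seen among deeper nuclei. Oligodendrocyte nuclei had a median of 1249 UMIs, and among the nuclei of 2000 or more UMIs, which are 6754 of 71388 oligodendrocytes, the within-animal difference of OTV:Malat1 from saline was 0.13 and that from anti-TfR:Malat1 was -0.05. Mean log2 Malat1 of oligodendrocytes in OTV:Malat1 was 13.92 in all nuclei and 15.08 in these, and in saline 16.64 and 16.70. The part of depth in this was not tested. The other 3 class differences against saline were -0.75, -0.96 and -0.92 among such nuclei. This minimum left out just 0 to 3 members per animal. Free oligodendrocyte RNA in member droplets can be read from Neat1, at 1091 CPM in oligodendrocytes and 2.40 CPM in members (28 UMIs in all), too few for a test. Oligodendrocyte markers (9 genes, none at 0 UMIs) summed to 102 to 207 CPM in saline members and to 129 to 380 CPM in OTV:Malat1 members, with medians of 150 and 134, so that 1 OTV:Malat1 animal sets the upper end. Their part in the Malat1 values was not tested.

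**Figure D5:**
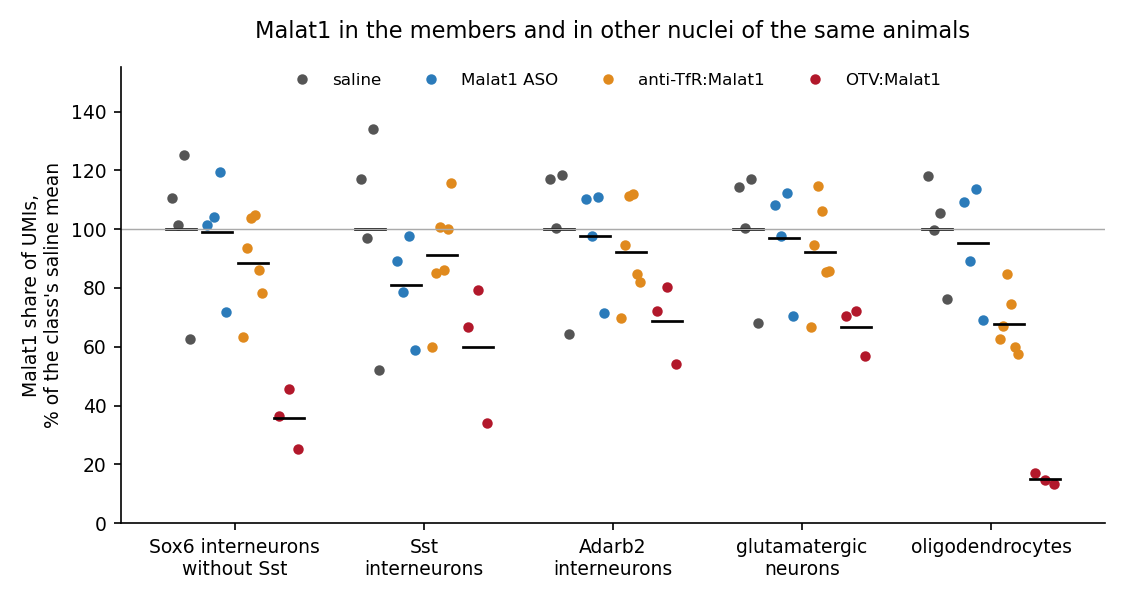
Malat1 share of UMIs in 5 classes as a percent of the saline mean of the class, 1 point per animal, horizontal bars for group means. OTV:Malat1 means stand at 35.8% in Sox6 interneurons without Sst, between 59.98% and 68.8% in the other neuron classes and at 15.0% in oligodendrocytes.

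Tfrc, the gene of the mouse receptor, was given at 35.0 ± 8.6 CPM in members (SD over 17 animals), 29.8 in Sst interneurons, 24.2 in Adarb2 interneurons, 22.7 in glutamatergic neurons and 12.1 in oligodendrocytes. The sources used here do not say whether these reads include the knocked-in human sequence. By treatment it stood at 35.7 CPM with saline, 32.9 with Malat1 ASO, 34.1 with anti-TfR:Malat1 and 38.7 with OTV:Malat1. Rnaseh1, the enzyme that cleaves RNA paired with DNA, stood at 10.0 CPM in members, 5.87 in Sst interneurons, 9.38 in Adarb2 interneurons, 10.5 in glutamatergic neurons and 17.6 in oligodendrocytes. In members it stood at 7.69 to 10.7 CPM with saline and 10.9 to 21.3 with OTV:Malat1 (25 and 19 UMIs in all). Malat1 ASO and anti-TfR:Malat1 animals lay from 4.07 to 13.3. Rnaseh1 was counted too low to be tested in edgeR. Of the 8240 better-counted genes that were tested, 4.38% had saline and OTV:Malat1 apart in that direction, on CPM that count Malat1 in the total. Tfrc and Rnaseh1 both have low counts (359 and 101 UMIs in members), and their values are a description.

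No gene other than Malat1 passed in any of the 6 pairs of groups. By edgeR, 0 of 8240 genes were called in each, and DESeq2 also called 0. At an unadjusted p under 0.05 edgeR gave 321 genes (3.9%) for OTV:Malat1 against saline, 294 (3.57%) for anti-TfR:Malat1 and 287 (3.48%) for Malat1 ASO. It gave 369 (4.48%) for OTV:Malat1 against anti-TfR:Malat1, 349 (4.24%) for OTV:Malat1 against Malat1 ASO and 294 (3.57%) for anti-TfR:Malat1 against Malat1 ASO. Among the given markers that the rule did not use, Nxph1 had an edgeR log2 change of -0.04 in OTV:Malat1 against saline and did not pass.

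The genes of smallest p with groups apart are given as values that did not pass. Traf6, an adaptor of innate immune signalling, stood at 14.4, 20.2, 20.6 and 13.5 CPM in the saline animals and at 42.8, 38.4 and 30.1 in the OTV:Malat1 animals, an edgeR log2 difference of 1.05 (SE 0.32, adjusted p 1.00). Malat1 ASO and anti-TfR:Malat1 animals lay between 12.8 and 38.0 CPM, overlapping both, and the counts behind a value were 7 to 26 UMIs. Cep83os (39.0 CPM in saline, 75.2 in OTV:Malat1) and P4htm (43.2 and 73.2) were the others on the higher side, and 4.38% of all genes had groups apart in that direction, against 1.43% in the other. Groups were set apart on CPM, which counts Malat1 in the total. In each OTV:Malat1 pair other genes thus stand slightly higher in OTV:Malat1, and the part of this in such shares was not tested.

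On the lower side, Prkx, a protein kinase gene, stood at 33.2, 34.4, 30.0 and 44.2 CPM in saline and at 18.04, 10.7 and 19.2 in OTV:Malat1 (5 to 8 UMIs per OTV:Malat1 animal). Its edgeR log2 difference was -1.22 (SE 0.33, adjusted p 1.00). Mcmbp, which binds the replicative helicase, stood at a mean of 54.2 CPM in saline and 31.1 in OTV:Malat1, and 2700049A03Rik at 39.2 and 20.1.

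Between the 2 conjugates, Slc32a1, the vesicular GABA transporter that loads the transmitter into vesicles, had the smallest p on the higher side, where 2.63% of all genes had groups apart. It stood at 67.6, 98.1 and 54.7 CPM in OTV:Malat1 and at 29.9 to 43.0 in anti-TfR:Malat1, and the saline animals, at 53.1, 47.5, 69.4 and 40.4, overlapped OTV:Malat1. The edgeR log2 difference between the conjugates was 0.86 (SE 0.21, p 0.00029, adjusted p 0.981), and it was 0.44 against saline (SE 0.22, adjusted p 1.00). Pea15a, at 43.0 against 22.3 CPM, was also on the higher side. Gucy1b1, a subunit of the nitric oxide receptor, was at 33.1 against 55.1 CPM, Sobp at 241 against 296 and Ralgapa2 at 270 against 333.

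For anti-TfR:Malat1 against saline the genes were Etfa (104 against 73.0 CPM), 8030462N17Rik (95.1 against 66.4) and Dab2ip (65.9 against 42.8) on the higher side. Supt6 (41.3 against 63.6), Wdr20 (52.8 against 74.0) and Hspbap1 (14.7 against 25.5) stood on the lower side. For Malat1 ASO against saline, Pcdh9 stood at 4173 against 3325 CPM, Usp25 at 154 against 113 and Fam20c at 29.9 against 16.5. Sema5a was at 43.8 against 73.3, Sesn3 at 87.7 against 126 and Scap at 18.3 against 35.7. For anti-TfR:Malat1, 0.364% of all genes had groups apart from saline on the higher side and 0.461% on the lower, and for Malat1 ASO 0.837% and 1.32%. None of these 12 passed in edgeR (adjusted p 0.999 for each).

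OTV:Malat1 against Malat1 ASO named Actn2 (61.6 against 29.2 CPM), Slc32a1 (73.5 against 35.0) and Rps27a (40.6 against 17.1), and on the lower side Supt16 (31.97 against 63.2), Prkx (15.95 against 32.8) and Mknk1 (17.8 against 35.7). The smallest edgeR adjusted p among them was 0.686, for Supt16, and 4.64% and 1.25% of all genes had groups apart in the 2 directions. Anti-TfR:Malat1 against Malat1 ASO named Schip1 (519 against 346 CPM), Zfpm2 (233 against 166) and Serinc5 (36.7 against 18.9), and on the lower side Skp2 (35.7 against 60.2), Mfsd11 (44.9 against 68.6) and Poldip2 (14.5 against 27.1). Groups lay apart in 0.546% of all genes on the higher side and 0.364% on the lower, and none of the 6 named passed in edgeR (adjusted p 1.00 for each).

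Grouped by role, 0 genes of any list were called by edgeR for OTV:Malat1 against saline, nor for any other pair of groups. Over all 8240 genes the median log2 change was -0.0044. CPM values count Malat1 in the total, so other genes stand slightly higher in OTV:Malat1 on that scale than in the edgeR fit with TMM scaling. Of 28 fast-spiking and Pvalb-class genes 25 were tested, with a median of -0.02. Erbb4 stood at 9095 ± 863 CPM in saline and 9146 ± 1225 in OTV:Malat1, Kcnc2 at 2792 ± 314 and 2899 ± 302, and Mef2c, a transcription factor, at 977 ± 98.9 and 1110 ± 183 (SD, n = 4 and 3). Of 17 genes of the medial ganglionic eminence lineage 13 were tested, and without Sox6, which the rule used, the other 12 had a median of -0.12.

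Of 22 genes of GABA synthesis, transport and reception 21 were tested, and without Gad1 and Gad2, which the rule used, the other 19 had a median of 0.07. Gabrg3, a GABA receptor subunit gene, stood at 2128 ± 234 CPM in saline and 2221 ± 228 in OTV:Malat1, and Gphn, the scaffold of inhibitory synapses, at 740 ± 100 and 792 ± 36.6. Of 21 perineuronal net and adhesion genes 17 were tested (median 0.01), and all 18 glutamate receptor genes (median 0.01). Nrxn3, a presynaptic adhesion gene, stood at 7896 ± 785 CPM in saline and 8252 ± 521 in OTV:Malat1, and Gria1, an AMPA receptor subunit gene, at 2250 ± 231 and 2349 ± 348.

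Among other nuclear long noncoding RNAs 12 of 15 were tested, with a median of -0.06 in OTV:Malat1 against saline. Meg3, an imprinted RNA abundant in neurons, stood at 11876 ± 401 CPM in saline and 12218 ± 329 in OTV:Malat1, and Snhg11 at 7651 ± 1350 and 7722 ± 1525. Of genes for splicing, speckle and paraspeckle proteins, all 19 were tested, with a median of -0.05. Srrm2, a speckle scaffold, stood at 938 ± 70.3 CPM in saline and 1048 ± 102 in OTV:Malat1. None of these genes that share a compartment with Malat1 passed in members.

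Immediate early genes, which neurons switch on with activity, had the median farthest from that of all genes among these lists for OTV:Malat1 against saline. Only 8 of 22 were counted deeply enough to test, with a median of -0.46 in OTV:Malat1 against saline, -0.35 in anti-TfR:Malat1 and -0.38 in Malat1 ASO, 3 comparisons that share the saline animals. In OTV:Malat1, 3 of the 8 had an unadjusted p under 0.05, against 3.9% of all genes: Nr4a1 (edgeR log2 difference -1.13, p 0.019), Nr4a3 (-1.48, p 0.036) and Homer1 (-0.44, p 0.036). It was 1 of 8 for anti-TfR:Malat1 and 1 of 8 for Malat1 ASO against saline, and 0 of 8 for OTV:Malat1 against anti-TfR:Malat1, all in edgeR. Nr4a1, a nuclear receptor, stood at 13.1 to 42.1 CPM in saline and 6.76 to 25.6 in OTV:Malat1, which overlap, and each of the 3 had an adjusted p of 1.00 in edgeR.

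Of 16 iron handling genes 10 were tested, with a median of 0.07 and none called. Trf, the transferrin gene, which oligodendrocytes make, had an edgeR log2 difference of 0.90 in OTV:Malat1 against saline (p 0.045, adjusted p 1.00). Fth1, the ferritin heavy chain gene, spanned 68.4 to 256 CPM in OTV:Malat1 and 84.6 to 127 in saline. The oligodendrocyte marker sum given above also spanned its widest range in OTV:Malat1, through 1 animal, and its part in these 2 genes was not tested. Of 15 p53 target genes 5 were tested (median -0.004), and of 20 interferon response genes, 18 of which are in the count table, only Stat2 was (0.21, edgeR adjusted p 1.00).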

How the data were processed

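Per the submitters' processing notes, Cell Ranger 6.0.1, Seurat 4 and the mm10 build were used. Per the file headers, the authors deposited whole-number UMI counts for 26131 genes and 284074 nuclei, with cell type labels, doublet calls, clusters and a batch number; each nucleus's counts summed to its deposited total. Members were summed per animal (20 or more members each). Depth per animal is given in the report.

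All 17 animals were fitted together with edgeR 4.0.16 (filterByExpr, TMM, glmQLFit, glmQLFTest; R 4.3.3, limma 3.58.1), Malat1 among the genes, adjusted by Benjamini-Hochberg over all genes with a threshold of 0.05. Single values used two-sided exact permutation of animals with the smaller tail doubled (scipy 1.17.1 and pandas 2.3.3 under Python 3.11.15, numpy 2.4.6), on log2(CPM + 1). Nothing in the labels says more on how samples were replicated, so p-values measure the spread between these samples. Scripts were tested on simulated data with the same spread set for all genes. In OTV:Malat1 against saline, 67 of 100 genes changed 2-fold were recovered and 96 of 100 changed 4-fold. There were 12 false calls among 8096 genes tested. Gene positions came from GENCODE on GRCm38.

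The members, gene lists and rules were chosen with earlier results of these data known. Named were Malat1, Neat1, the 4 given markers, up to 10 called genes in each direction per comparison whose groups did not overlap, or else up to 3 in each direction by unadjusted p with 20 CPM or more, up to 3 highest genes of each list, and the genes leading members over other neurons (25 ranked) or Sst interneurons (15 each way); some of these are not reported here. In the report Traf6, Prkx and Slc32a1 are given by animal, and Trf, Nr4a3 and Fth1 beside their lists, chosen after their values were seen. Within batches only batches holding both groups entered. Alternatives were DESeq2 1.42.0, other scaling, no low-count filter, a fit of just the 2 groups, blocks by title number or batch, other member rules, other thinning depths, nuclei of 2000 or more UMIs and leaving out each animal. Added after seeing the data were cluster 17 alone, the 4 smallest clusters left out, the 2-class edgeR fit and the split by Pvalb.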

Additional observations from a re-analysis of the deposited data

Results flagged for a closer look

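The search for differences between classes of nuclei in the same contrast covered Malat1 only. An unadjusted exact p or an edgeR adjusted p under 0.05 was found in 14 cases. In 6 of them, exact tests, the adjusted p did not pass, and the other 8 passed in edgeR. By exact permutation, Malat1 in members minus oligodendrocytes differed by 0.40 between anti-TfR:Malat1 and saline, the former higher (exact p 0.0286, adjusted p 0.0914). Among nuclei of 2000 or more UMIs that difference was 0.19. In OTV:Malat1 against anti-TfR:Malat1 the difference between members and another class was -0.66 for Sst interneurons, -0.90 for Adarb2 interneurons, -0.87 for glutamatergic neurons and 0.84 for oligodendrocytes (exact p 0.0238 to 0.0476, adjusted p 0.0914). The last was -0.05 among nuclei of 2000 or more UMIs. Members with a Pvalb UMI minus members without gave -0.55 in the same contrast (exact p 0.0238, adjusted p 0.0952), and -0.28 without OTV:Malat1 animal 1.

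In the edgeR fit of 2 classes the difference from Adarb2 interneurons was -0.995 against saline, -0.93 against anti-TfR:Malat1 and -1.03 against Malat1 ASO for OTV:Malat1. From glutamatergic neurons it was -0.96, -0.90 and -1.003 in the same order (edgeR adjusted p 2.1e-09 or lower in each). From oligodendrocytes it was 1.31 against saline and 1.21 against Malat1 ASO (edgeR adjusted p 3.5e-05 and 0.00020). Single animals far from the rest of their group were sought in 36 groups of values from saline, Malat1 ASO and anti-TfR:Malat1. None was found, where chance gives about 1 in 20. OTV:Malat1, with 3 animals, was too small for this search and was not examined.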

How the results depend on the processing

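The Malat1 changes of OTV:Malat1 against saline, anti-TfR:Malat1 and Malat1 ASO kept their direction and passed under each of 30 alternatives, 1 of them DESeq2 and the others edgeR. Title numbers did not pair the animals (median correlation of same-numbered deviations 0.0089, from -0.14 to 0.18, 21 pairs), and same-batch pairs gave 0.0994. With the replicate block the change against saline was -1.61 (SE 0.17, edgeR adjusted p 1.1e-07), against anti-TfR:Malat1 -1.53, and 0 other genes were called; with the batch as a block they were -1.59 and -1.45. The replicate block turned the difference from Sst interneurons in anti-TfR:Malat1 against saline to 0.10.

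Without a filter on low counts, edgeR called 1 other gene for OTV:Malat1 against saline (Gm47283), 10 for Malat1 ASO against saline, 1 for OTV:Malat1 against anti-TfR:Malat1 (Egfem1), 1 against Malat1 ASO (AC149090.1) and 7 for anti-TfR:Malat1 against Malat1 ASO. With Sst at 0 it called 1 for Malat1 ASO against saline (Rgs6) and 1 for OTV:Malat1 against Malat1 ASO. The fit with only Pvalb members lacked Malat1 ASO animals 3 and 4, anti-TfR:Malat1 animals 1 and 4 and OTV:Malat1 animal 3. In that fit edgeR called 1 other gene for Malat1 ASO against saline (Gm47283). The edgeR fit of 2 classes passed where the exact test did not: -0.995 and -0.93 from Adarb2 interneurons, -0.96 and -0.90 from glutamatergic neurons, against saline and anti-TfR:Malat1, and 1.31 from oligodendrocytes against saline. With nuclei of 2000 or more UMIs the oligodendrocyte difference against anti-TfR:Malat1 turned to -0.0549. The cause was not tested for any of these.

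Small differences that did not pass changed sign. The Malat1 change of Malat1 ASO against saline was -0.0429 in Pvalb members, without Malat1 ASO animals 3 and 4. The other animals named above were also missing from that fit. It was -0.15 to 0.15 leaving out each animal (single value -0.20 to 0.16). The anti-TfR:Malat1 member share against saline was 0.0031 points with Sst at 0, 0.789 as a percent of GABAergic nuclei and -0.190 to 0.0705 without single animals. For the Pvalb UMI share, OTV:Malat1 against saline was -0.562 within batches, -1.69 at 1000 and -0.160 at 3000 UMIs and -0.651 to 2.31 without single animals. Anti-TfR:Malat1 against saline was -0.468 at 1000 UMIs, -0.545 at 3000 UMIs and -0.341 for 2 or more Pvalb UMIs. Malat1 ASO against saline was -0.971 at 1000 UMIs, -0.451 for 2 or more and -0.667 to 3.09 without single animals. OTV:Malat1 against anti-TfR:Malat1 was 0.385 at 3000 UMIs, 0.445 for 2 or more and -2.10 to 0.863 without single animals. Without single animals the Sst interneuron difference of anti-TfR:Malat1 was -0.14 to 0.026 and the Adarb2 interneuron difference of Malat1 ASO -0.0066 to 0.069, both against saline. The Pvalb split of Malat1 in Malat1 ASO against saline was -0.0392 to 0.0286, and in OTV:Malat1 it was -0.73 to -0.25 against saline and -0.76 to -0.28 against anti-TfR:Malat1.

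Depth set limits: 72 to 132 members per animal left 8240 genes testable, and Neat1, most interferon and most immediate early genes were below the filter. With 3 OTV:Malat1 animals, exact tests against saline could not go below 0.0571.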
